A study of Mus musculus with 8 samples.

Results

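Foxk1 binding around 6 genes of glucose use (Slc2a1, Hk2, Eno1, Pkm, Ldha and Pdk1) and around Hif1a was read from the peaks of a chromatin immunoprecipitation experiment in untreated mouse embryonic fibroblasts (MEFs), connective-tissue cells grown from embryos. A member was any Foxk1 peak whose summit lay in 1 of 7 windows of the mm9 assembly, of 110 to 140 kb, each set around 1 of the genes. The rule found 24 peaks of the 28933 in the list. They lay in 6 of the 7 windows, where 48.3% of windows of their mean length over the genome held a peak, and the Pdk1 window held none. The series held 8 libraries, of which 3 used anti-Foxk1, 3 used IgG as a control and 2 were input (no antibody). Its track line names the list as Foxk1 against input, and it gives 1 signal value and 1 q-value per peak. There is no value per library and none for IgG, so no result carries a replicate error, depth is unknown, and enrichment that IgG would also show cannot be told apart from Foxk1 binding.

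Foxk1 is a forkhead transcription factor, which binds DNA through a winged-helix domain. Foxk1 and its relative Foxk2 have been described as inducers of aerobic glycolysis, the conversion of glucose to lactate while oxygen is present, and Foxk1 has been placed downstream of the growth kinase mTORC1 in the control of Hif1a. Hif1a encodes the oxygen-regulated subunit of hypoxia-inducible factor 1, which raises transcription of glycolytic genes by binding DNA words whose core can be ACGTG. The question put to the list was whether it places Foxk1 peaks near these genes and how strong those peaks were.

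The promoters of the genes are shown as context for the 2 factors, from RefSeq on GRCm38.p6. These coordinates belong to a different assembly and cannot be set against the mm9 positions of the peaks, so whether a peak covers a promoter was not determined. All 7 genes matched the RefSeq table, with 12 start sites between them. The forkhead word GTAAACA, or TGTTTAC on the other strand, was in none of these 12 stretches of 250 bases before a start, and was in 3.17% of all 32851 such stretches. The shorter core AAACA or TGTTT was in none of the 12 either, against 46.4% of all. The members' stretches were mostly GC-rich, with a median GC content of 66.4% against 52.4% over all. Below 60% GC were 1 stretch each of Eno1 (55.6%), Ldha (54.4%) and Pdk1 (38.4%). Among the 9178 stretches with at least 60% GC the core AAACA or TGTTT was in 17.1%. The absence of these letters says nothing of where Foxk1 binds. The HIF core ACGTG, or CACGT on the other strand, was in 5 of the 12 stretches (41.7%). It was in 16.6% of all stretches and in 23.0% of those with at least 60% GC. The 5 stretches came from 5 of the 7 genes (Slc2a1, Hk2, Pkm, Ldha and Hif1a). That of Pkm was not before its start farthest 5′. This word was added after seeing the data, and the difference in shares was not tested. The form GCGTG of the core was not counted, and the stretches before the starts farthest 5′ of Eno1 and Pdk1 hold it. These 2 genes are thus not shown to lack a HIF core. The word CACGTG holds both strands' cores overlapping and is taken as 1 place. The 4 genes that carry the core ACGTG before their start farthest 5′ are printed 5′ to 3′ along the gene, with the matches in capitals. The Ldha stretch has it in 3 places, Hif1a in 2, Hk2 in 2 and Slc2a1 in 1.
Ldha, chr7:46845554-46845803, plus strand: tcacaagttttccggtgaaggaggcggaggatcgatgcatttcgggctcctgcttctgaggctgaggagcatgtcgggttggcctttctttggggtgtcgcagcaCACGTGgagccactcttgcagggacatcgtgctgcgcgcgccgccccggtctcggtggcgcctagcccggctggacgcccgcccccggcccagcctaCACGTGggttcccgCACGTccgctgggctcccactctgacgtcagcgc
Hif1a, chr12:73907617-73907866, plus strand: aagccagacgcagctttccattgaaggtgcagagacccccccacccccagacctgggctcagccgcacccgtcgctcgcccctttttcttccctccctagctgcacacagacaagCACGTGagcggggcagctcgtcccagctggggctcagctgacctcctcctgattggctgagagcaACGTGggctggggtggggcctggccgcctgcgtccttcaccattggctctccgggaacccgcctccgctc
Hk2, chr6:82774455-82774704, minus strand: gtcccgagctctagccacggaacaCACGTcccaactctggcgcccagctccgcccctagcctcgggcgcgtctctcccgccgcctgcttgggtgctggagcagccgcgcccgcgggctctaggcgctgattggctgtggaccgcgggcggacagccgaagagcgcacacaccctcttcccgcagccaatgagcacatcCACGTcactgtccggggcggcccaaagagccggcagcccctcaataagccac
Slc2a1, chr4:119108495-119108744, plus strand: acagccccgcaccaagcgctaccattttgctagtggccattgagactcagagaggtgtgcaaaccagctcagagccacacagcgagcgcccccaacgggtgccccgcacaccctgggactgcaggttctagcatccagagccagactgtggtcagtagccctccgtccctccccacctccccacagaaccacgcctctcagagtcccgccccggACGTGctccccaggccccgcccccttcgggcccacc

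Slc2a1, which encodes the glucose transporter Glut1, had the most and the strongest peaks of the 7 genes. Its 140 kb window on chromosome 4 (118.73 to 118.87 Mb) held 8 peaks, and 2 of them had a signal value above 50, a level found in 9.27% of windows of 128.6 kb laid over the genome. The highest, from 118739822 to 118740281, had a signal value of 55.0 and was rank 1880 of 28933, within the highest 6.50% of the list. The signal value is the authors' score for the peak, with no stated scale, and the lowest in the list is 11.3. The next, from 118798332 to 118798791, had 52.0 and rank 2146. Both had the lowest q-value of the list, 0.00014, which they shared with 3564 peaks in all. These 2 peaks were far apart in the window: the first lay 59.9 kb to the left of its centre and the second 1.44 kb to the left of it.

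The other 6 Slc2a1 peaks were weaker. A peak starting at 118793960 had a signal value of 31.7 and lay 4372 bp from the peak of 52.0. One starting at 118739309 had 21.4 and its summit was only 513 bp from that of the strongest peak. Between these 2 sites, a pair with 21.3 and 20.9 started at 118780833 and 118778246, with summits 2587 bp apart. The remaining peaks, starting at 118846685 and 118819404, had 19.5 and 12.6 and stood 27.3 kb and 21.1 kb from any other summit. Thus 7 of the 8 peaks were at or above the list's median signal value of 17.8, and only the peak of 12.6 was below it.

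Hk2 encodes hexokinase 2, which traps glucose in the cell by phosphorylating it. Its window on chromosome 6 (82.65 to 82.78 Mb) held 3 peaks, all above the median of the list. A pair with summits 981 bp apart started at 82723238 and 82724219 and had signal values of 38.4 (rank 3963) and 29.4 (rank 6474). The third, starting at 82706222, had 28.5 (rank 6861) and lay 17.0 kb to the left of the pair. All 3 were thus above the list's 75th percentile of 27.6. No other window with a peak had all of its peaks above it. Their q-values were 0.000379, 0.000541 and 0.00051.

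Eno1 encodes enolase 1, which makes phosphoenolpyruvate in the lower part of glycolysis. Its window on chromosome 4 (149.56 to 149.68 Mb) held 5 peaks, all on the right of its centre. From left to right they started at 149623859, 149640143, 149643364, 149646907 and 149661060. In that order their signal values were 12.8, 13.1, 20.1, 25.0 and 36.8. Each peak was thus stronger than the one to its left, and the strongest (rank 4339) lay 41.3 kb from the centre. The middle 3 formed a group with summits 3221 and 3543 bp apart. To the left of these 5, the nearest peak lay 125.8 kb outside the window, and its signal value of 64.2 was higher than any within it.

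Pkm encodes pyruvate kinase M, the enzyme of the last step of glycolysis. Its window on chromosome 9 (59.45 to 59.58 Mb) held 1 peak, from 59540627 to 59541086, with a signal value of 25.3, a q-value of 0.000418 and rank 8370. This peak stood alone: the nearest summit was 148 kb away, and the stretch to the next on the right was 459 kb. Of all stretches between neighbouring summits in the list, 3.56% were at least as long, and the median was 24.8 kb.

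Ldha encodes lactate dehydrogenase A, which turns pyruvate into lactate. Its window on chromosome 7 (54.05 to 54.16 Mb) held 2 peaks. The stronger, from 54100631 to 54101090, had a signal value of 18.7 and rank 13456, close to the median of the list, and lay 4.14 kb from the centre of the window. The other, from 54051280 to 54051739, had 12.5 and rank 24339, and lay 49.4 kb from the first. It was only 1.51 kb inside the left edge of the window. Chromosome 7 is sparse in this list, with 944 peaks, or 0.619 per 100 kb. The Ldha window had 1.82 per 100 kb, a value that rests on 2 peaks. At least 2 peaks were in 20.2% of chromosome 7 windows of 128.6 kb. Over the genome they were in 28.0% of windows of 110 kb, the length of the Ldha window. Outside the window, a stronger peak of 40.8 lay 74.9 kb beyond its left edge.

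Pdk1 encodes pyruvate dehydrogenase kinase 1, which inhibits pyruvate dehydrogenase. No peak was listed in its window on chromosome 2 (71.66 to 71.79 Mb). The nearest on the left, with a signal value of 18.0, lay 91.2 kb outside the window, and the nearest on the right, with 22.9, lay 126 kb outside it. The stretch between them was 347.5 kb, and 4.87% of all stretches between neighbouring summits were at least as long. The list ends at a signal value of 11.3, so weaker enrichment at Pdk1 would not be seen. Windows without a peak were common, at 51.7% of windows of this size over the genome and 48.1% on chromosome 2.

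Hif1a was the only transcription factor gene of the 7, and its window held several peaks of mostly low signal. There were 5 on chromosome 12 (74.96 to 75.1 Mb). The highest, from 74989302 to 74989761, had a signal value of 26.5, a q-value of 0.000452 and rank 7750. The next, starting at 75056975, had 19.6 (rank 12503). The other 3, starting at 74981306, 75008072 and 74983565, had 14.5, 12.3 and 11.7, all below the median of the list, and the last was the weakest of the 24 peaks (rank 27120). Of the 5 peaks, 4 lay left of the centre, and 3 of these formed a group with summits 2259 and 5737 bp apart. Chromosome 12 held 725 peaks, or 0.598 per 100 kb, and the Hif1a window had 3.57 per 100 kb. A further peak of 12.3 lay 5.43 kb outside the left edge, and on the right the next was 194 kb away.

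**Figure D1:**
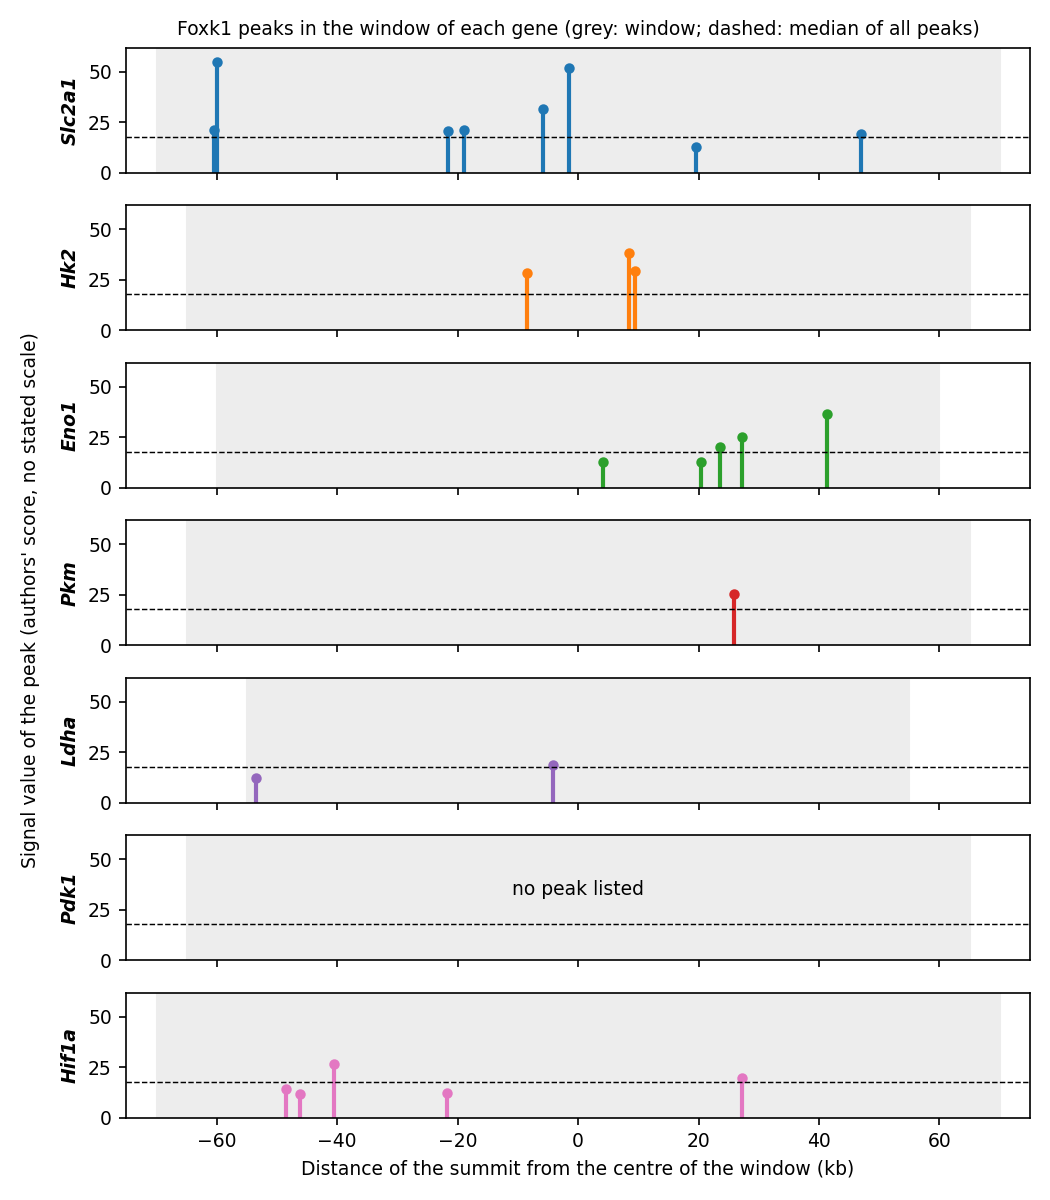
Each panel is the window of 1 gene (grey), with the distance of a peak's summit from the window's centre in kb on the horizontal axis and the signal value, the authors' score, on the vertical axis; each stick is 1 peak of the single list, and the dashed line is the list's median of 17.8. Slc2a1 holds the 2 peaks above 50, the 5 peaks of Eno1 lie on the right and grow towards the edge, and Pdk1 holds none.

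By their highest peaks the genes came in the order Slc2a1 (55.0), Hk2 (38.4), Eno1 (36.8), Hif1a (26.5), Pkm (25.3) and Ldha (18.7), with none listed for Pdk1. In windows narrowed by 20 kb on each side the highest Eno1 peak was that of 25.0, which put Eno1 below Hif1a and Pkm. With 1 value per peak there is no spread to say which neighbours in this order differ. By the number of peaks the order was another: 8 for Slc2a1, 5 each for Eno1 and Hif1a, 3 for Hk2, 2 for Ldha and 1 for Pkm. Hif1a thus had more peaks than Hk2 over the whole list, but among peaks that reached the list's median signal value, or had a q-value of at most 0.001, Hif1a had 2 and Hk2 still had 3. The median signal value in a window was 29.4 for Hk2, 25.3 for the single Pkm peak, 21.3 for Slc2a1, 20.1 for Eno1, 15.6 for Ldha and 14.5 for Hif1a.

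Against the whole list, the 24 peaks had a somewhat higher median signal value, with a share above 50 close to that of the list. Their median signal value was 21.1 against 17.8, and 17 of them (70.8%) were at or above the median of the list. Above the 75th percentile of the list, 27.6, lay 7 of them (29.2%): 3 of Slc2a1, 3 of Hk2 and 1 of Eno1. At or below the 25th percentile, 13.5, lay 6: 2 of Eno1, 2 of Hif1a and 1 each of Slc2a1 and Ldha. The 2 Slc2a1 peaks above 50 made up 8.33% of the 24, and peaks that high made up 7.97% of the list. The highest value in the list, 391, was far above the 55.0 of Slc2a1. By signal value the highest member was rank 1880 of 28933, within the highest 6.50%. By q-value the 2 Slc2a1 peaks above 50 held the lowest value, as did 12.3% of the list.

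**Figure D2:**
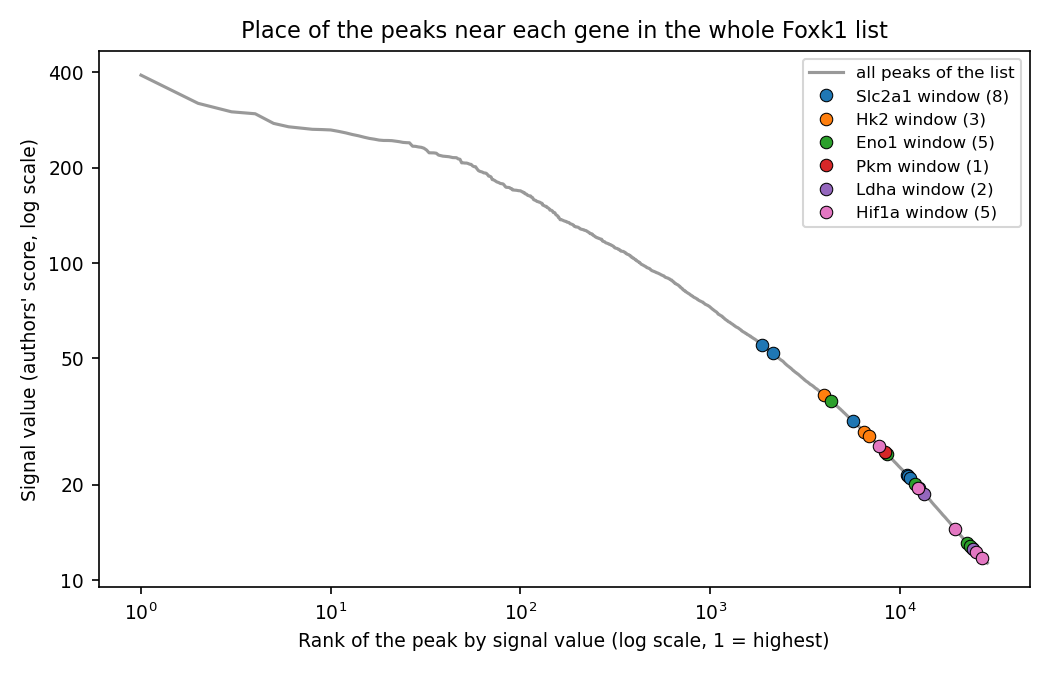
Signal value (log axis) against rank by signal value (log axis, 1 is the highest) for all 28933 peaks (grey line) and the 24 peaks near the genes (points, coloured by gene, with the number of peaks of each in the legend). The points start at rank 1880 for Slc2a1 and run down to rank 27120 for Hif1a, and none lies on the upper left part of the curve.

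The q-value ordered the peaks of a gene differently from the signal value in 3 of the 6 windows with peaks. In the Eno1 window the strongest peak, with a signal value of 36.8, had a q-value of 0.000576, and the next, with 25.0, had a lower one of 0.00041. By q-value their ranks in the list were 9970 and 4060, against 4339 and 8543 by signal value. For Hk2 the peak of 28.5 had a lower q-value than that of 29.4. In the Slc2a1 window the peak of 19.5 had a q-value of 0.000754, lower than the 0.000779 of the peak of 21.4. The peaks of Hif1a and of Ldha kept the same order on both, and the single Pkm peak had no order to compare. A q-value of at most 0.001 was given to 17 of the 24 peaks (70.8%) and to 51.3% of the list, and the highest among the members was 0.00732.

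The windows were also set against the genome, divided into 20487 windows of 128.6 kb, the mean length of the 7. At least 1 peak was found in 48.3% of these windows and in 6 of the 7 gene windows (85.7%). On the members' own chromosomes the share was 53.4% on chromosome 6 (Hk2), 51.9% on 2 (Pdk1), 45.6% on 9 (Pkm), 41.9% on 4 (Slc2a1 and Eno1), 35.3% on 12 (Hif1a) and 33.6% on 7 (Ldha). At least 1 peak at or above the median signal value was in 34.2% of genome windows and in the same 6 gene windows. The genome windows include stretches without genes or without sequence, and windows around other genes were not compared, so a difference from the genome is not shown to be particular to these genes.

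At least 8 peaks, as at Slc2a1, were in 2.46% of the genome windows, or 3.05% of windows of its own length of 140 kb. At least 5 peaks, as at Eno1 and Hif1a, were in 9.07%, and at least 3 in 21.0%, against 4 of the 7 gene windows. On chromosome 12 at least the 5 peaks of Hif1a were in 2.44% of windows of 128.6 kb. On chromosome 4 the share with at least the 5 of Eno1 was 6.20%. In genome windows of the gene's own length, at least 5 peaks were in 10.5% for Hif1a (140 kb) and 8.10% for Eno1 (120 kb). A peak at least as strong as the highest of Slc2a1 was in 7.79% of genome windows, and for Hk2, Eno1, Hif1a, Pkm and Ldha the shares were 14.5%, 15.5%, 23.5%, 24.7% and 32.8%. Among genome windows with a peak, the median of the highest signal value was 25.9. Hif1a lay just above that median, Pkm just below, and Ldha further below.

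**Figure D3:**
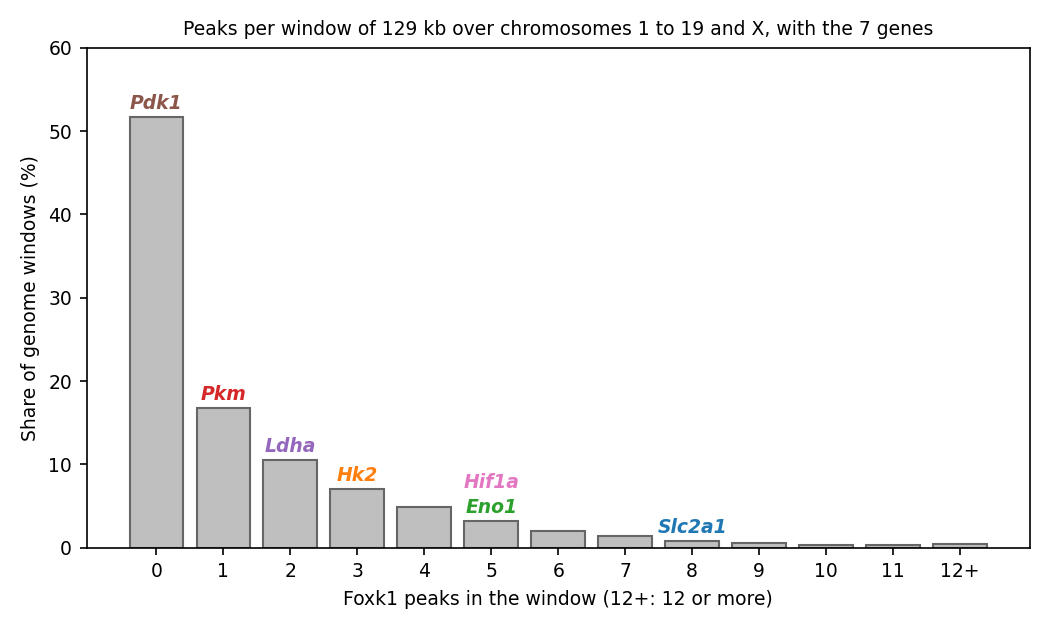
Share of genome windows of 129 kb (vertical axis, percent) by the number of Foxk1 peaks they hold (horizontal axis, 12+ for 12 or more), with each gene named above the bar of its own number. Pdk1 stands over the tallest bar, of windows with no peak, and Slc2a1 over the bar for 8 peaks.

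The share of peaks with a near neighbour was above that of the list at 1 distance and below it at another. Of the 24, 13 (54.2%) had another summit within 5 kb, against 39.6% of the list. Within 2000 bp, 4 (16.7%) had one, the pairs at Slc2a1 and Hk2, against 25.8% of the list. A window can also hold other genes. In the RefSeq gene order the nearest protein-coding genes on either side were Lao1 and Zfp691 for Slc2a1, Pole4 and Sema4f for Hk2, Car6 and Rere for Eno1, Parp6 and Gramd2 for Pkm, Gtf2h1 and Ldhc for Ldha, Itga6 and Rapgef4 for Pdk1, and Prkch and Snapc1 for Hif1a. Ldhc encodes a second lactate dehydrogenase, found in testis. Which of the peaks lie in a promoter, an intron or a neighbouring gene was not determined, and no peak is assigned to a gene beyond its window.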

How the data were processed

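Chromatin of MEFs was immunoprecipitated with Foxk1 antibody (3 libraries) or IgG (3 libraries), or kept as input (2 libraries). Reads were aligned to mm9 with Bowtie, per the submitters' processing notes; its version, the peak caller and its settings, and whether libraries were pooled, were not stated in the labels or the file. For each peak, the authors deposited a signal value, which is a score of no stated scale. The q-values in this deposited table, a form of adjusted p-value, are linear, from 0.00014 to 0.00995. All peaks were 460 bp wide.

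Peaks with a summit inside a window were listed, ranked by signal value, and counted; coordinates are given 1-based. Ranks of tied peaks are the lowest of the tie. Genome windows were laid from the start of chromosomes 1 to 19 and X up to the highest peak end. No test was made, since there is 1 list and no replicate. All 7 genes and every peak in their windows are named, as the rule for naming set out; the members and lists were chosen with earlier results of these data known. Other genes of glycolysis, planned if mm9 annotation was at hand, and motifs at summits were not analysed here. Promoter words were searched in RefSeq sequences (GRCm38.p6); the AAACA and ACGTG words were added after seeing the data. Counting was tested on 4 simulated lists, where all planted peaks were found. Python 3.11.15, numpy 2.4.6, pandas 2.3.3 and matplotlib 3.10.9 were used.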

Additional observations from a re-analysis of the deposited data

How the results depend on the processing

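The 6 of 7 genes with a peak stayed 6 under all alternatives run, and the total of 24 peaks stayed within 1.5 times. These were only peaks whose signal value reached the median, or with a q-value of at most 0.001 (17 peaks each), summits less than 500 bp or (added after seeing the data) 1000 bp apart merged, any base of a peak inside the window, and windows narrowed or widened by 20 kb on each side. The stricter thresholds took Eno1 from 5 peaks to 3, Hif1a from 5 to 2 and Ldha from 2 to 1, and left Hk2 at 3, so that Hif1a then had fewer peaks than Hk2. Narrowing the windows lowered the highest signal value of Slc2a1 from 55.0 to 52.0 and that of Eno1 from 36.8 to 25.0, from the third place to the fifth, since their strongest peaks lie near an edge, and took Ldha to 1 peak. The share of genome windows with a peak was 43.1% at 100 kb and 51.5% at 150 kb, against 48.3%; by chromosome it was 51.9% (2), 41.9% (4), 53.4% (6), 33.6% (7), 45.6% (9) and 35.3% (12). Distances to start sites and motifs at summits, and their alternatives, were not run without mm9 sequence or annotation. No paired analysis was possible because the list holds no value per replicate, and no replicate could be left out. Depth is unknown, so a window without a peak had none detected at this threshold.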
